A study of Rattus norvegicus with 12 samples.

Results

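The 9 enzymes described here belong to the pathway that builds cholesterol: Hmgcs1, Idi1, Fdps, Fdft1, Sqle, Cyp51, Msmo1, Nsdhl and Dhcr7. They were chosen by name for their place in the pathway, out of 14217 genes named on the array. Earlier results of these data were known when they were chosen. Of these 9, 8 were analysed, with 12 probe sets in all, and each of the 12 passed the filter on dim signals; Hmgcs1, the cytosolic synthase that feeds the pathway, was not analysed here.

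RNA came from epididymal white adipose tissue, the fat pad beside the epididymis, of rats killed at 24 weeks of age, and 1 array was hybridised per sample. Caloric restriction (CR, 4 arrays) was applied to wild Wistar rats, which were given 70% of the energy intake from 6 weeks of age. The transgenic group (Tg, 4 arrays) consisted of dwarf rats heterozygous for an antisense transgene against growth hormone, and these rats ate ad libitum. The AL group (4 arrays) consisted of wild Wistar rats eating ad libitum. In all groups food was given 30 minutes before lights off and tissue was taken after lights on the following morning. The labels do not name the promoter that drives the transgene, and their genotype field carries the same entry, Wistar (-/-), on all 12 arrays, so that Tg is known from the titles and source names. The samples are labelled as biological replicates. Each group has its own code in the sample descriptions, the same on its 4 arrays; should that be a session, session and group cannot be told apart.

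Cholesterol is made from acetyl-CoA. Acetyl-CoA units are joined and reduced to mevalonate, which is turned into isoprenoid diphosphates, joined to squalene, folded into lanosterol and then stripped of methyl groups and reduced to cholesterol. The genes of this pathway are known targets of SREBP-2, the product of Srebf2, which is released from the endoplasmic reticulum when membrane sterol is low. Fat tissue holds a large store of cholesterol, most of it taken up from lipoproteins, and its own synthesis is known to be low.

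The promoters of the 4 enzymes whose brightest probe set passed the test in at least 1 comparison below are printed first. CCAAT boxes recur in them; in known sterol-regulated promoters such boxes bind the factor NF-Y, which acts together with SREBPs. Each is the RefSeq GRCr8 sequence from 250 bases before to 50 bases after the transcription start, 5′ to 3′ on the gene's strand, and capitals mark CCAAT or its reverse complement ATTGG. The promoter of Nsdhl lies at chrX:155817110-155817409 on the plus strand and that of Msmo1 at chr16:29746863-29747162 on the plus strand. The promoter of Idi1 lies at chr17:66547475-66547774 on the minus strand and that of Fdps at chr2:176804767-176805066 on the minus strand.
Nsdhl: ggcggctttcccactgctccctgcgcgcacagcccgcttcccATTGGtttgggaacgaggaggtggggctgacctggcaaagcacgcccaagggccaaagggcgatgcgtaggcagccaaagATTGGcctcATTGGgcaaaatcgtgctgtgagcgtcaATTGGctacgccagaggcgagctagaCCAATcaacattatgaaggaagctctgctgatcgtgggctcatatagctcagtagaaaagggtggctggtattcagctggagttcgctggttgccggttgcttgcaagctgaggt
Msmo1: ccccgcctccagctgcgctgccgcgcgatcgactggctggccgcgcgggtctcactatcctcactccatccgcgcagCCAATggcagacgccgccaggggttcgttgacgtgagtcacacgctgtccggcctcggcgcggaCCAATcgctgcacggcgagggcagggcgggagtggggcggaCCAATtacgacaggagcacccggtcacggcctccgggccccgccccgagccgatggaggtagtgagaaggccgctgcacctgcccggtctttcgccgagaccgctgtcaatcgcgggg
Idi1: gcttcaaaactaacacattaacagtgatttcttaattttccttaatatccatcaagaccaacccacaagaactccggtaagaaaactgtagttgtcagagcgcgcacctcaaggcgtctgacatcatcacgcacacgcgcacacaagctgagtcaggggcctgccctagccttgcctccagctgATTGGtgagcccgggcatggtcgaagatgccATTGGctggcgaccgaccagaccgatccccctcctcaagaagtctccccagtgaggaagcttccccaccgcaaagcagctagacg
Fdps: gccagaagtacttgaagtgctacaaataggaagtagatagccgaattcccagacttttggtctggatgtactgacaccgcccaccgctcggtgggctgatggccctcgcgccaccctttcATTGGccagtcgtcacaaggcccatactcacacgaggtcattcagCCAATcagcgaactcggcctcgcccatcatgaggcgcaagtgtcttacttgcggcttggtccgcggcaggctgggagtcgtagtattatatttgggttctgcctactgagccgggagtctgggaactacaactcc

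Promoter entries matched 6 of the 8 measured enzymes; Sqle and Fdft1 were not among them. Nsdhl held 5 CCAAT boxes, which began at positions -208, -128, -119, -91 and -65 from the start. Msmo1 held 3, at -173, -109 and -68. Idi1 held 2, at -66 and -35, and Fdps held 2, at -130 and -85. Cyp51, of which only a dimmer probe set passed, in CR against Tg, had 0 in this window, and so did Dhcr7. So 4 of the 6 promoters held at least 2, against 11.2% of the 33469 promoters of the same length; 3.02% of all promoters held at least 3 and 0.218% at least 5. A GC box (GGGCGG, both strands) was found in 4 of the 6, against 33.1% of all promoters, and the core of the sterol regulatory element (CACNCCAC, both strands) in 0 of the 6, against 5.8%. No CCAAT box shared a base with a GC box in these promoters. The matches describe letters in these windows and show no binding.

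All values are log2 of the deposited array intensity, and a difference of 1 on this scale is a doubling. Each enzyme is given by its brightest probe set, and levels are compared between samples, never between enzymes. Groups were compared with limma, and a change was called at a Benjamini-Hochberg adjusted p under 0.05 over all 23281 probe sets tested. Matrix medians were 222.6 to 239.4 intensity units and array backgrounds 34.5 to 44.1, apart from 58.5 on CR3; the median standard error (SE) of a log2 change for CR against AL was 0.13. Adipocyte markers (8 of 8 measured) averaged 13.25 to 13.56 on CR arrays, 12.86 to 13.31 on Tg arrays and 13.002 to 13.40 on AL arrays. Several arrays also carried transcripts of neighbouring tissues. The spermatid score (mean log2 intensity of 6 of 6 markers) was 10.89 on CR1, 12.55 on Tg2, 12.09 on AL1 and 13.14 on AL2, and 6.26 to 7.89 elsewhere. The duct epithelium score (7 of 7 markers) was 10.81 on CR2, 10.90 on CR4, 10.78 on Tg2, 10.98 on Tg4 and 10.27 on AL3, and 8.83 or less elsewhere. Adam7, the 1 caput epididymis marker of 5 with a probe set, reached 13.84 on CR4, and the exocrine pancreas score (5 of 5) 12.996 on Tg1. The growth hormone gene Gh1, targeted by the transgene and expressed mainly in the pituitary, was dim in this tissue, at 7.20 to 7.38 on CR, 6.85 to 7.30 on Tg and 6.97 to 7.24 on AL arrays, so it gives no check of the transgene here.

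CR was set against AL to find what restriction did to fat in rats without the transgene. All 8 enzymes had a higher mean in CR, by 0.30 to 0.97 on the log2 scale, with a median of 0.63, and 49.9% of all probe sets tested had a higher mean in CR. Msmo1 and Nsdhl rose; the other 6 did not pass the test. Those 2 of 8 called stand against 1.45% of all probe sets called in either direction, 0.636% called higher and 0.816% called lower in CR. The median change over all probe sets was -0.00076. CR arrays lay above all AL arrays for 4 of the 8 (Idi1, Cyp51, Msmo1 and Nsdhl), against 4.3% of all probe sets. Of the 8 adipocyte markers, 1 was called higher in CR and 0 were called lower. Fewer adipocytes and less RNA per adipocyte cannot be told apart in tissue RNA, nor can their opposites.

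Among the markers of other cells given next, only those of macrophages were called in CR against AL. Macrophage markers scored 10.002 to 10.26 on CR, 10.52 to 10.85 on Tg and 10.61 to 10.87 on AL arrays. In CR against AL 5 of 7 fell, against 0.816% of all probe sets called lower. Endothelial markers (4 of 5 measured) scored 10.38 to 10.78 on CR, 10.45 to 10.69 on Tg and 10.59 to 10.87 on AL arrays, with 0 of 4 called. Markers of steroidogenic cells, which make hormones from cholesterol, scored 7.56 to 7.76 on CR, 7.25 to 7.39 on Tg and 7.02 to 7.53 on AL arrays; they were dim, 2 of 4 passed the filter and 0 were called. The part of these markers in the enzymes' differences was not tested, apart from the fits with the spermatid and duct epithelium scores given under the dependence on processing.

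**Figure D1:**
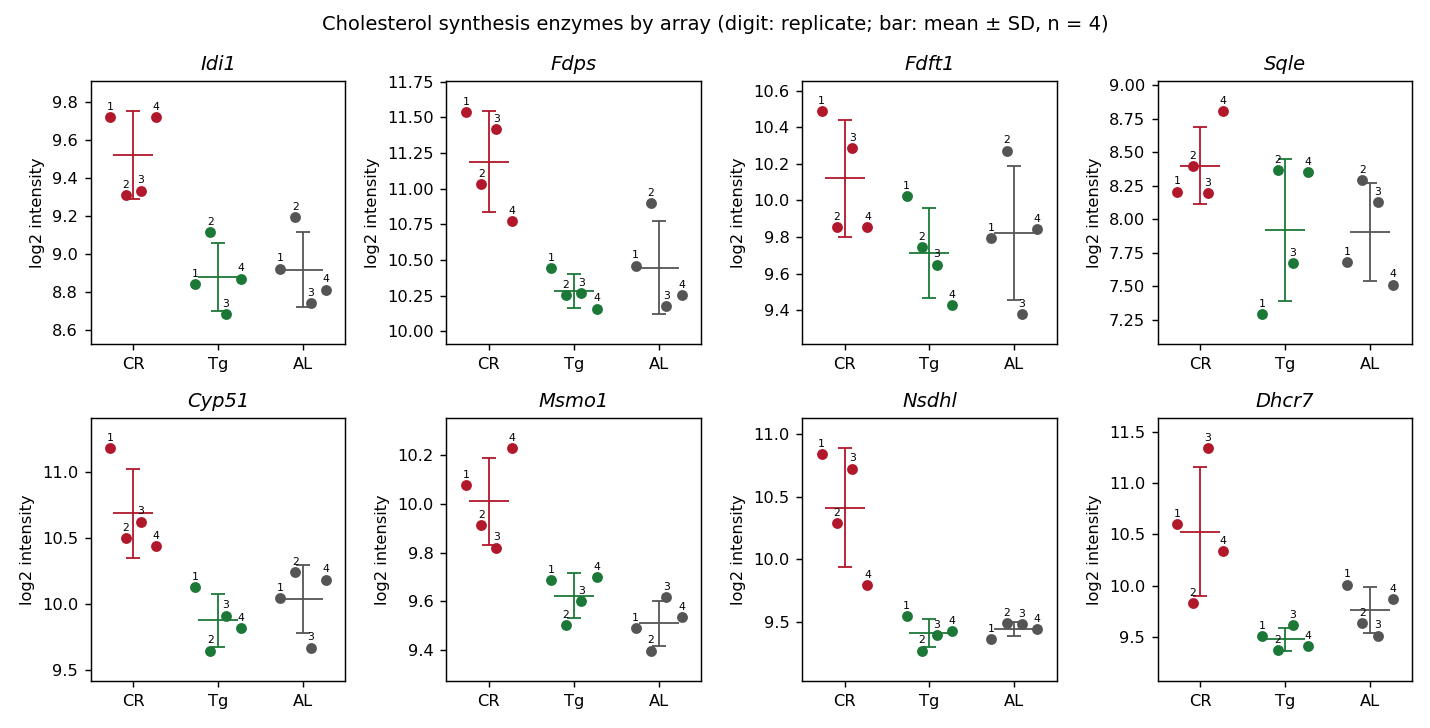
Log2 intensity (vertical axes) of the 8 measured cholesterol synthesis enzymes on each array, by group (CR, Tg, AL), with the replicate number beside each point and bars for the mean ± SD of 4 arrays. The CR means lie above the Tg and AL means in every panel. In Idi1, Cyp51, Msmo1 and Nsdhl no CR array falls within the range of the AL arrays. In Fdps, Fdft1, Sqle and Dhcr7 the CR and AL ranges overlap, and in Fdft1 and Sqle the CR and Tg ranges overlap too.

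The first enzymes of the branch make and join isoprenoid units. Idi1, isopentenyl diphosphate isomerase, which supplies the allylic unit that starts chain growth, measured 9.72, 9.31, 9.33 and 9.72 on CR1 to CR4, 8.84, 9.12, 8.69 and 8.87 on Tg1 to Tg4, and 8.92, 9.20, 8.74 and 8.81 on AL1 to AL4. Every CR array lay above every AL and Tg array, and the ranges of the Tg and AL arrays overlapped. Its mean was 9.52 ± 0.23 in CR and 8.92 ± 0.20 in AL (SD, n = 4 each), a log2 change of 0.60 (SE 0.14), 1.52-fold, that missed the threshold (limma, adjusted p = 0.0544). A second, dimmer probe set of Idi1 changed by 0.56 and passed (limma, adjusted p = 0.0322).

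Fdps, farnesyl diphosphate synthase, whose product also serves protein prenylation, measured 11.54, 11.03, 11.42 and 10.77 on CR1 to CR4, 10.44, 10.26, 10.27 and 10.16 on Tg1 to Tg4, and 10.46, 10.90, 10.17 and 10.25 on AL1 to AL4. AL2 lay above CR4 and apart from the other AL arrays, and no Tg array reached a CR array. The difference between CR and AL was 0.74 (SE 0.18), 1.67-fold (limma, adjusted p = 0.0694).

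Fdft1, squalene synthase, commits farnesyl units to sterols. It measured 10.49, 9.85, 10.29 and 9.85 on CR1 to CR4, 10.03, 9.75, 9.65 and 9.43 on Tg1 to Tg4, and 9.79, 10.27, 9.38 and 9.84 on AL1 to AL4. CR1 and CR3 were high, while CR2 and CR4 lay within the AL range. The difference between CR and AL was 0.30 (SE 0.20, 95% interval -0.14 to 0.74; limma, adjusted p = 0.488), and 0.50 by its second probe set (limma, adjusted p = 0.061).

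Sqle, squalene epoxidase, is a known control point of the pathway below mevalonate. It measured 8.21, 8.40, 8.20 and 8.81 on CR1 to CR4, 7.30, 8.37, 7.68 and 8.35 on Tg1 to Tg4, and 7.68, 8.29, 8.13 and 7.51 on AL1 to AL4. Its groups overlapped, and the 4 highest arrays of the 12 were CR4, CR2, Tg2 and Tg4, which are also the 4 highest in duct epithelium score. The difference between CR and AL was 0.50 (SE 0.26, 95% interval -0.07 to 1.07; limma, adjusted p = 0.368), and 0.43 with the spermatid and duct epithelium scores in the model.

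After lanosterol, methyl groups are removed in turn. Cyp51, the cytochrome that starts this by demethylating lanosterol, measured 11.18, 10.50, 10.62 and 10.44 on CR1 to CR4, 10.13, 9.64, 9.91 and 9.81 on Tg1 to Tg4, and 10.04, 10.24, 9.67 and 10.18 on AL1 to AL4. CR1 stood above the other CR arrays, and all CR arrays lay above all others. The difference between CR and AL was 0.65 (SE 0.18), 1.57-fold, without passing (limma, adjusted p = 0.0919), and 0.39 by a second probe set (limma, adjusted p = 0.156).

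Msmo1, methylsterol monooxygenase, oxidises a methyl group of the sterol ring. It measured 10.08, 9.91, 9.82 and 10.23 on CR1 to CR4, 9.69, 9.50, 9.60 and 9.70 on Tg1 to Tg4, and 9.49, 9.40, 9.62 and 9.53 on AL1 to AL4. The CR arrays were above all others and close together, with the smallest SD among the 8 enzymes within CR. Its mean was 10.01 ± 0.18 in CR and 9.51 ± 0.09 in AL (SD, n = 4 each), and it rose 1.41-fold, by 0.50 on the log2 scale (SE 0.09; limma, adjusted p = 0.0308).

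Nsdhl, the sterol dehydrogenase that acts next on the same carbon, measured 10.84, 10.29, 10.73 and 9.79 on CR1 to CR4, 9.54, 9.27, 9.39 and 9.43 on Tg1 to Tg4, and 9.36, 9.49, 9.48 and 9.44 on AL1 to AL4. The AL and Tg arrays were tightly grouped, while the CR arrays were spread widely above them with CR4 nearest. Its mean was 10.41 ± 0.48 in CR and 9.44 ± 0.06 in AL (SD, n = 4 each), and it rose 1.96-fold, by 0.97 on the log2 scale (SE 0.18; limma, adjusted p = 0.0334). The second probe set gave 0.94 and passed too (limma, adjusted p = 0.0322), with 9.42, 8.89, 9.04 and 8.34 on CR1 to CR4 and 7.82, 8.03, 8.02 and 8.06 on AL1 to AL4.

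Dhcr7, dehydrocholesterol reductase, carries out a last reduction that yields cholesterol. It measured 10.60, 9.83, 11.34 and 10.33 on CR1 to CR4, 9.50, 9.37, 9.61 and 9.41 on Tg1 to Tg4, and 10.01, 9.64, 9.51 and 9.87 on AL1 to AL4. CR3 was far above the rest, and CR2 lay within the AL range. The difference between CR and AL was 0.77 (SE 0.25), 1.70-fold, with the widest spread within CR of the 8 enzymes (SD 0.63; limma, adjusted p = 0.156). Without CR3 it was 0.50 and without CR2 it was 0.9996.

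The calls were close to the threshold and changed with the arrays left out. Leaving out 1 array also cut the calls over all probe sets in CR against AL. They fell from 338 to between 44 (without AL4) and 283 (without CR4). Without the 4 arrays with high spermatid scores 0 of the 8 enzymes were called against AL, although all 8 means stayed higher in CR and the median change was 0.66; across all probe sets 2 were then called in place of 338. With the spermatid and duct epithelium scores in the model, 7 of the 8 were called against AL (all but Sqle), when 6.74% of all probe sets were called. Nsdhl lost its call without any 1 of CR1, CR2, CR3 or the AL arrays (limma, adjusted p from 0.0547 to 0.105), and Msmo1 without any 1 of CR1, CR2 or the AL arrays (limma, adjusted p from 0.0563 to 0.0931).

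**Figure D2:**
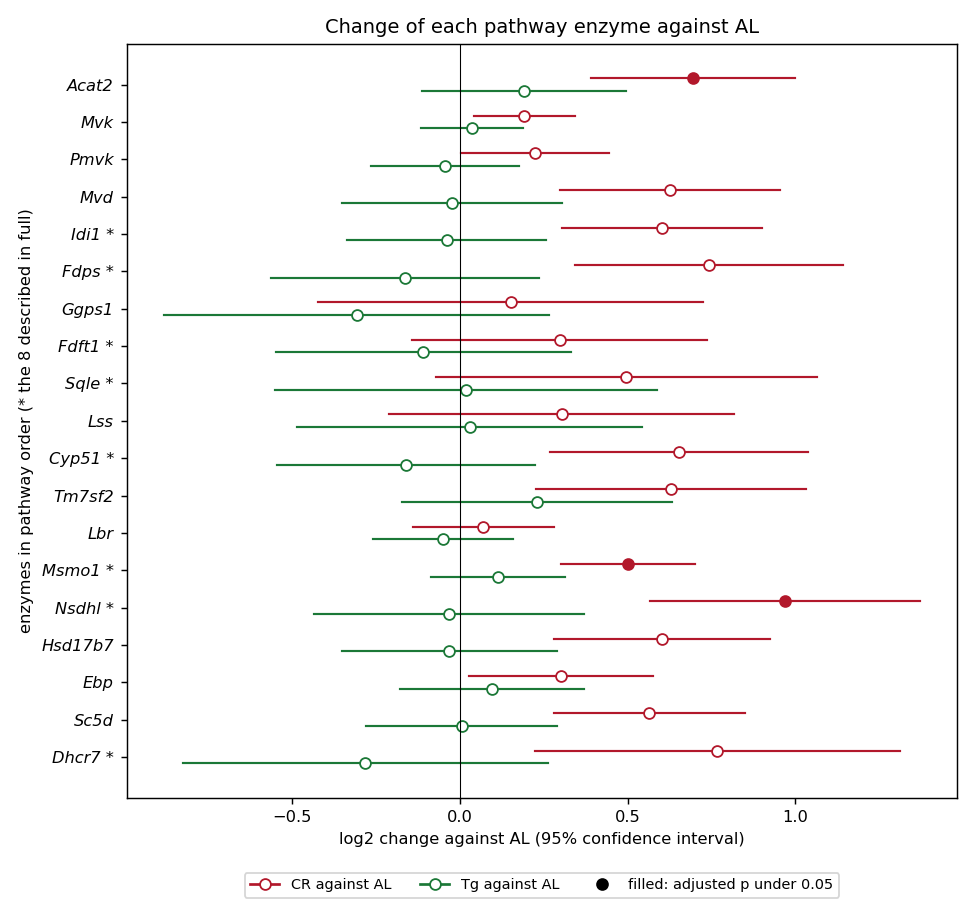
Log2 change against AL (horizontal axis, points) with 95% confidence intervals (lines) for 19 enzymes, each by its brightest probe set, in pathway order, CR in red and Tg in green, filled where adjusted p was under 0.05; asterisks mark the 8 enzymes described singly. All 19 CR points lie to the right of 0, with Acat2, Msmo1 and Nsdhl filled, and the Tg points lie on both sides of 0 with none filled.

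Another 11 genes of the pathway were analysed here. By their brightest probe sets all 11 had a higher mean in CR than in AL, with a median change of 0.30, and 1 rose. Of all probe sets tested, 49.9% had a higher mean in CR and 0.636% were called higher. Acat2, which joins acetyl-CoA units at the entry of the pathway, measured 9.92, 9.44, 9.62 and 9.20 on CR1 to CR4 and 8.95, 8.79, 8.95 and 8.71 on AL1 to AL4. Its CR arrays all lay above its AL arrays, and it rose by 0.69 (SE 0.14; limma, adjusted p = 0.0406). Mvd, mevalonate diphosphate decarboxylase, was higher by 0.63, Hsd17b7, a keto-reductase of the demethylation steps, by 0.60 and the desaturase Sc5d by 0.57. By these brightest probe sets they did not pass (limma, adjusted p = 0.0629, 0.066 and 0.0579). The dimmer sets of Sc5d rose, by 0.75 and 0.60 (limma, adjusted p = 0.0258 for each). The smallest differences were those of Lbr (0.07), Ggps1 (0.15), which leads to geranylgeranyl diphosphate outside the sterol branch, and Mvk (0.19). The probe sets of Ggps1 disagreed: its 2 dimmer sets were lower in CR, by -0.07 and -0.32 on the log2 scale, and none of the 3 was called (limma, adjusted p from 0.19 to 0.799). Over all 19 measured pathway genes, each by its brightest probe set, 19 were higher in CR, 3 rose and 14 had an unadjusted p under 0.05, which 16.7% of all probe sets had.

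Of 10 genes of sterol control, 5 were higher and 1 rose in CR against AL. Over all probe sets tested, 49.9% had a higher mean in CR and 0.636% were called higher. Srebf2, which encodes SREBP-2, measured 10.05, 10.07, 10.08 and 10.39 on CR1 to CR4 and 9.74, 9.58, 9.70 and 9.79 on AL1 to AL4. The groups did not overlap, and it rose by 0.44 with an SE of 0.10 (limma, adjusted p = 0.0485). The calls of Srebf2 and Acat2 were close to the threshold, and their dependence on single arrays was not tested. Srebf1, whose product drives fatty acid synthesis genes, was higher by 0.68 (SE 0.16; limma, adjusted p = 0.058), and Insig1, a sterol-sensing retention protein and itself a SREBP target, by 0.80 (SE 0.26; limma, adjusted p = 0.157). Scap, Insig2, Mbtps1 and Mbtps2, whose products carry, hold or cleave SREBPs, differed by -0.12 to 0.04 by their brightest probe sets, and the second set of Scap by 0.17. Of 8 genes of cholesterol uptake, transport, storage and efflux analysed here, 3 were higher, 5 lower and 0 called, with changes of the brightest probe sets from -0.39 (the efflux transporter Abcg1) to 0.28 (Apoe). The 6 genes of fatty acid synthesis taken for comparison had larger differences, with a median of 2.34, and 5 of 6 rose; Fasn rose by 2.41 (limma, adjusted p = 0.000418).

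**Figure D3:**
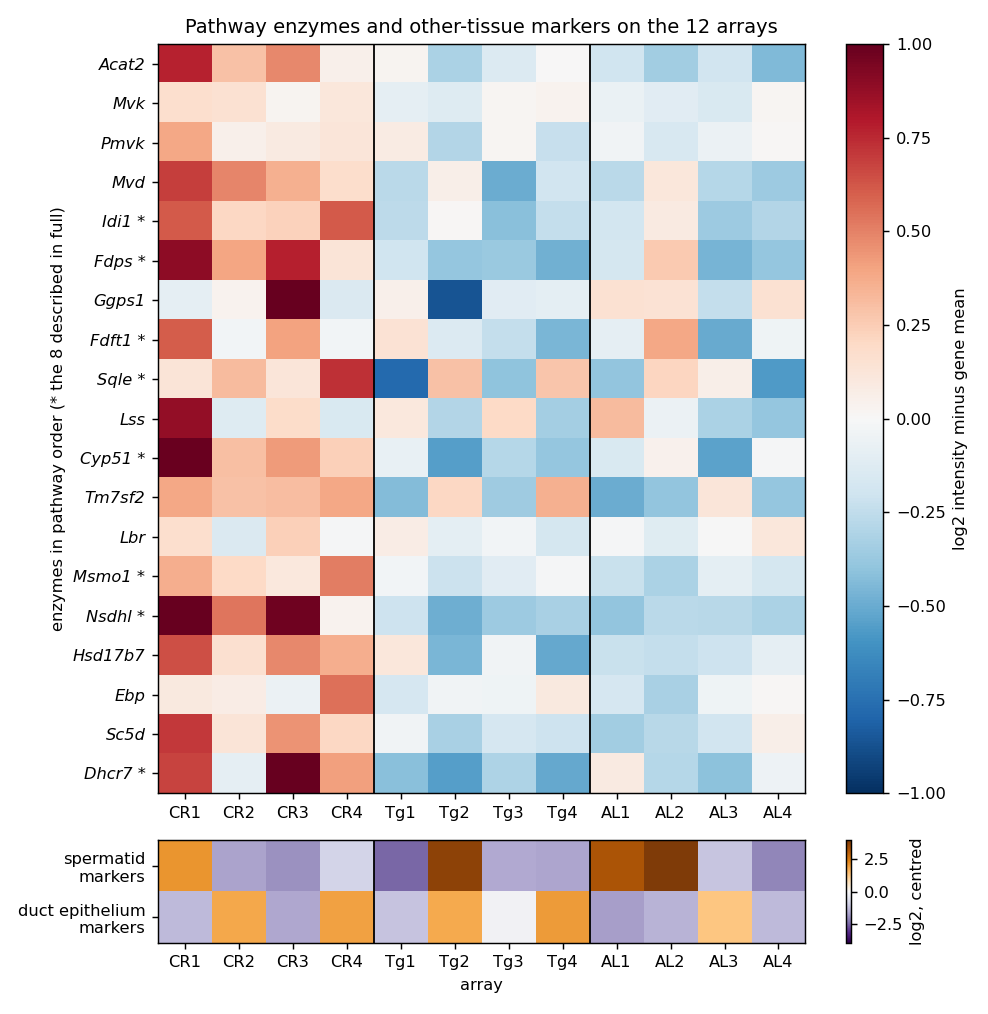
Log2 intensity minus the gene's mean over the 12 arrays (colour, upper panel, with full colour at 1 and beyond) for the 19 pathway enzymes in rows and the arrays in columns, with the spermatid and duct epithelium scores, also centred, in the lower panel. Rows are mostly red on the CR arrays, most strongly on CR1 and CR3, whereas the lower panel changes from array to array within each group.

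Within CR the enzymes did not keep 1 order of arrays. The mean of the 8 enzymes, each centred on its own mean, was 0.67 on CR1, 0.23 on CR2, 0.56 on CR3 and 0.33 on CR4, and on Tg arrays it was -0.31 to -0.23. On AL arrays it was 0.02 on AL2 and -0.32 to -0.19 on the others. All 4 CR arrays were above the other 8, and AL2 came next. CR4 was the highest CR array for 3 enzymes (Idi1, Sqle and Msmo1) and the lowest for 4 (Fdps, Fdft1, Cyp51 and Nsdhl), while AL2 was the highest AL array for 6 of 8. Over the 12 arrays the 28 pairs of enzymes had Pearson r from 0.02 to 0.92, with a median of 0.68. With each group's mean removed, r ran from -0.54 to 0.90 with a median of 0.20. The highest r within groups was that of Fdps with Fdft1 (0.90), and Fdft1 with Cyp51 had 0.82. The median r within groups with the other 7 was -0.37 for Sqle and -0.30 for Msmo1; the lowest pairs were Sqle with Cyp51 and Fdps with Msmo1, both at -0.54. These values describe 12 arrays, and on each array the 8 enzymes were read from the same RNA. The within-group spread includes the other-tissue transcripts above.

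Among 12103 other named genes, the 10 most like the mean of the 8 enzymes over the 12 arrays were Mrpl12 (Pearson r 0.976), Parm1 (0.960), Ptrh2 (0.957), Pdhb (0.952), Acaca (0.949), Pnpla3 (0.949), Atp5f1c (0.947), Elovl6 (0.946), Pcyt2 (0.944) and Mpc2 (0.942). Acaca and Elovl6 make and lengthen fatty acids, Pdhb is a subunit of pyruvate dehydrogenase, and Mpc2 is part of the mitochondrial pyruvate carrier. From the pathway list the nearest was Mvd (0.896, rank 67), and Srebf1 was at rank 66 (0.897), Insig1 at rank 85 (0.880) and Srebf2 at rank 499 (0.733). These r include the difference between groups.

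The single probes gave another view of the same arrays. Each array file holds z-scores of the single probes, 11 in each set of these enzymes, and on their log2 scale all 88 probes (100%) of the 8 brightest sets had a higher mean in CR than in AL, against 49.7% of all 256083 probes of tested sets. In the dimmer sets 10 of 11 probes were higher for each of Idi1, Fdft1 and Cyp51, and 11 of 11 for Nsdhl. The probes of a set read 1 transcript, so they are not replicates. Nsdhl probes differed by 0.21 to 1.37, Msmo1 probes by 0.30 to 0.67 and Dhcr7 probes by 0.02 to 1.08. For Tg against AL, 26 of 88 probes (29.5%) were higher in Tg, against 49.5% of all probes, among them all 11 of Msmo1 and 0 of 11 of Fdps and of Dhcr7. None of these probe values was blank or above the saturation level.

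**Figure D4:**
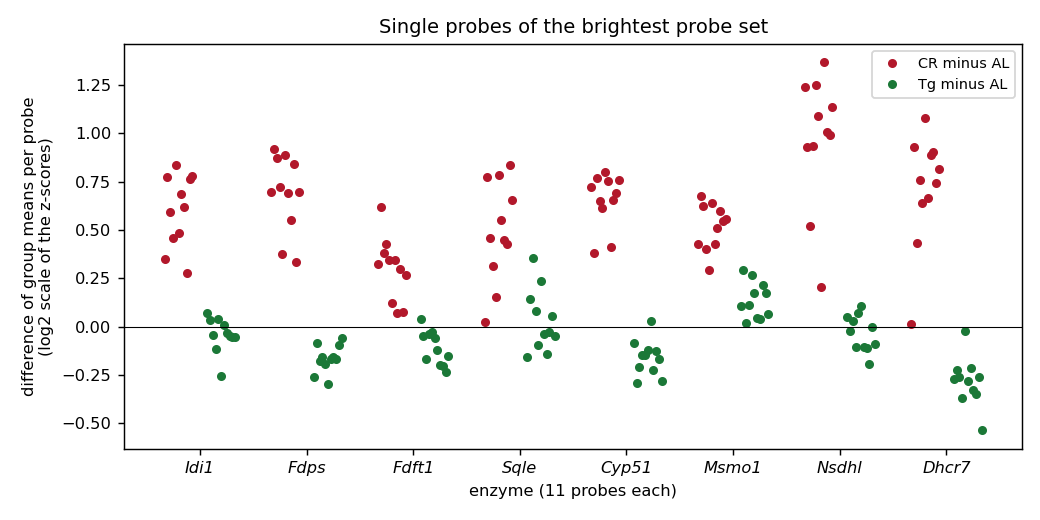
Difference of group means for each of the 11 probes of the brightest probe set of every enzyme, CR minus AL in red and Tg minus AL in green, on the log2 scale of the probe z-scores (vertical axis). All 88 red points lie above 0, from 0.02 to 1.37, and 26 of the 88 green points do.

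Tg was set against AL to find what the antisense transgene did in rats with free access to food. Among the 8 enzymes 2 were higher and 6 lower in Tg, where 48.1% of all probe sets were higher, with changes from -0.28 (Dhcr7) to 0.11 (Msmo1) and a median of -0.07. This split did not hold: 6 of 8 were higher in Tg with the spermatid and duct epithelium scores in the model, and 5 of 8 without the 4 arrays with high spermatid scores. With limma 0 of 8 were called, and 0% of all probe sets were called in either direction; 0 of the 8 had all Tg arrays above all AL arrays, against 1.78% of all probe sets; 0 of the 8 and 5.95% of all probe sets had an unadjusted p under 0.05, and with probe z-scores summarised by median polish 2 probe sets of all were called. Nsdhl averaged 9.41 ± 0.11 in Tg and 9.44 ± 0.06 in AL (SD, n = 4 each), a change of -0.03 (95% interval -0.44 to 0.37). Idi1 changed by -0.04 (-0.34 to 0.26), Fdps by -0.16 (-0.57 to 0.24) and Cyp51 by -0.16 (-0.55 to 0.22). Dhcr7 averaged 9.48 ± 0.11 in Tg and 9.76 ± 0.22 in AL (SD, n = 4 each), with an interval of -0.83 to 0.26. The intervals for Sqle (-0.55 to 0.59) and Fdft1 (-0.55 to 0.33) still hold differences as large as those seen in CR. Those of Idi1, Fdps, Cyp51, Msmo1 (-0.09 to 0.31), Nsdhl and Dhcr7 do not reach their changes in CR. Over the 19 pathway genes 8 were higher in Tg and 0 were called, and Srebf2 differed by 0.01.

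CR against Tg sets restriction beside the transgene, and it is also the difference of their changes against the shared AL arrays. All 8 enzymes had a higher mean in CR, by 0.39 (Msmo1) to 1.05 (Dhcr7), with a median of 0.73, and 48.3% of all probe sets did. Idi1, Fdps and Nsdhl rose, 3 of 8, against 1.25% of all probe sets called in either direction, 0.735% called higher and 0.515% called lower in CR. An unadjusted p under 0.05 was reached by 6 of the 8 and by 16.9% of all probe sets. For 6 of the 8 the CR arrays lay above every Tg array, against 5.03% of all probe sets; the exceptions were Fdft1 and Sqle. Nsdhl averaged 10.41 ± 0.48 in CR and 9.41 ± 0.11 in Tg (SD, n = 4 each), and it rose by 1.003 (SE 0.18; limma, adjusted p = 0.0307). Fdps averaged 11.19 ± 0.35 in CR and 10.28 ± 0.12 in Tg (SD, n = 4 each), and it rose by 0.91 (SE 0.18; limma, adjusted p = 0.0401). Idi1 rose by 0.64 (SE 0.14; limma, adjusted p = 0.0463).

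Those 3 enzymes lost their calls in CR against Tg when the replicate number was used as a block (limma, adjusted p = 0.0529 for Nsdhl, 0.0598 for Fdps and 0.0691 for Idi1). Their calls were also lost when the 4 arrays with high spermatid scores were left out (0 of 8 called, median change 0.67). With the spermatid and duct epithelium scores in the model 7 of 8 were called, and 5.56% of all probe sets. The other 5 did not pass: Cyp51 differed by 0.81 (limma, adjusted p = 0.0519), with a second probe set at 0.60 that rose (limma, adjusted p = 0.0463), Dhcr7 by 1.05 (0.0689), Msmo1 by 0.39 (0.0686), Fdft1 by 0.41 (0.33) and Sqle by 0.48 (0.377). Of the other 11 pathway genes all were higher in CR than in Tg by their brightest probe set, with a median of 0.40 and 0 called. Among dimmer sets, 1 of Ggps1 was lower, at -0.25. The dimmer sets of Sc5d rose, by 0.65 and 0.49 (limma, adjusted p = 0.0384 and 0.0491). Srebf1 rose by 0.90 in CR against Tg (SE 0.16; limma, adjusted p = 0.0258), and Srebf2 was higher by 0.43 (limma, adjusted p = 0.0582).

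**Figure D5:**
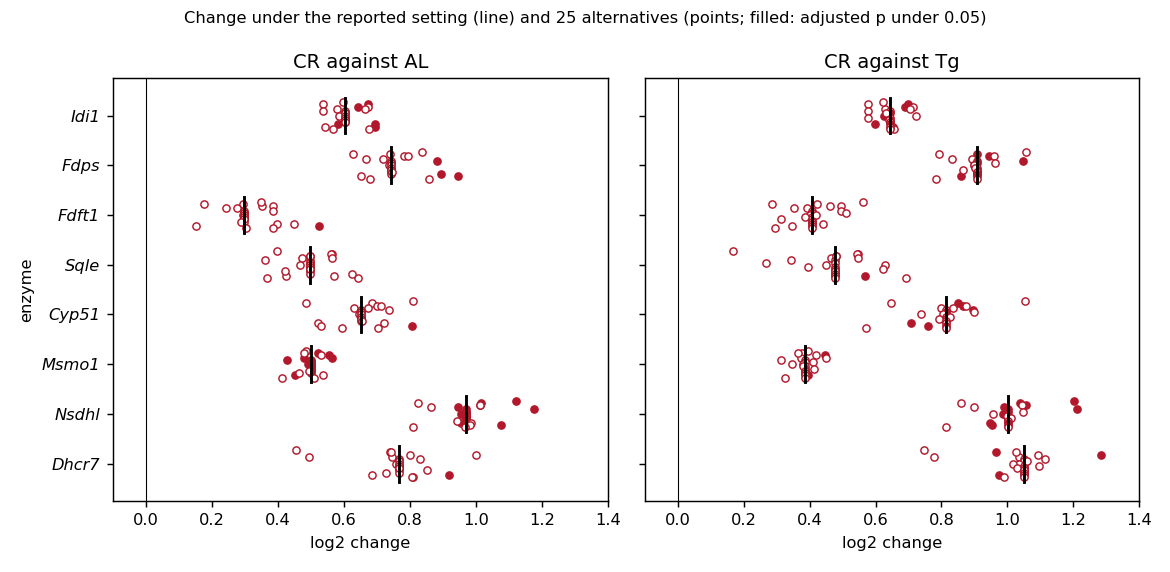
Log2 change of each enzyme in CR against AL (left) and CR against Tg (right) under the reported setting (black line) and 25 other settings (points, filled where adjusted p was under 0.05). All points lie to the right of 0 in both panels, and which points are filled varies with the setting.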

How the data were processed

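Arrays were grouped by their titles. The authors deposited a matrix of linear intensity per probe set, made by a method not given in the sources used here, with no software named. The authors also deposited a score, the probe z-score, for each array, and a table of other quantities (background, mean, SD and saturation per array), per the file headers. Of 31099 probe sets, 57 controls were left out, values under 1 were set to 1, and log2 taken. Probe sets whose mean lay above the 25th percentile (6.61) were tested (23281) with limma 3.58.1 in R 4.3.3 (1 mean per group, all 12 arrays, eBayes with trend, two-sided, Benjamini-Hochberg). The number of arrays limits the precision. Gene names came from the platform annotation, in which 20826 probe sets had 1 symbol. The genes named are the 9 enzymes, by the brightest probe set per gene, members of lists of related genes, and, added here, the 10 genes most like the enzymes' mean.

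Replicate numbers are shared between groups. Same-numbered CR and Tg arrays deviated together (r 0.32 to 0.62 for the 4 pairs). Those of CR and AL (-0.49 to 0.49) and of Tg and AL (-0.30 to 0.45) deviated together for some numbers and in opposite directions for others. Among the Tg arrays the same number was the best match for 2 of the 4 CR arrays, so a pairing is not shown. The blocked fit is given beside CR against Tg. The enzymes and lists were chosen with earlier results of these data known. The script was tested on simulated data.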

Additional observations from a re-analysis of the deposited data

How the results depend on the processing

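In 25 alternatives, all 8 enzymes had a higher mean in CR than in AL (median change 0.54 to 0.75) and than in Tg (0.61 to 0.79), while the calls moved. For CR against AL, 2 of 8 were called as reported, and 0 with the 8 arrays of those groups alone, 1 with the replicate block, 7 with both marker scores (spermatid, duct epithelium) in the model, 0 without the 4 arrays with spermatid transcripts, 1 without 3 arrays (CR3, CR4, Tg1), and 0 to 3 with single arrays left out. For CR against Tg, 3 were called as reported, and 5 by median polish of the probe z-scores, 5 after quantile normalization, 1 with arrays centred on the median, 1 without the trend, 0 with those groups alone, 0 with the replicate block, 7 with the scores, 0 without the spermatid arrays, 1 without 3 arrays (CR3, CR4, Tg1), and 0 to 3 with single arrays left out. For Tg against AL, 0 were called in each alternative. The causes were not tested. Over all probe sets, CR against AL had 338 calls (0.00859% to 6.74% of those tested across the alternatives) and CR against Tg 291 (0% to 5.56%). The replicate block took the call of Nsdhl in CR against AL (limma, adjusted p = 0.0526); its numbers do not pair CR with AL.

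Small uncalled changes in Tg against AL reversed. With the scores they were 0.043 (Idi1), 0.086 (Fdps), 0.18 (Fdft1), -0.14 (Sqle), 0.046 (Cyp51) and 0.12 (Nsdhl). Without the spermatid arrays they were 0.021 (Idi1), 0.077 (Fdps), 0.090 (Fdft1), -0.049 (Sqle) and 0.024 (Cyp51). Averaged over probe sets, Nsdhl was 0.0079. With single arrays left out, Idi1 ran from -0.12 to 0.053, Fdft1 from -0.26 to 0.041, Sqle from -0.13 to 0.23 and Nsdhl from -0.078 to 0.013.

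In CR against Tg, Nsdhl and Fdps lost their calls without any 1 of CR1, CR2, CR3, the Tg arrays, AL1 or AL4, and Idi1 without any array other than AL2 (limma, adjusted p from 0.0509 to 0.144). Fdps in CR against AL passed without CR4 or AL2. With 1 array left out, the calls over all probe sets in CR against Tg moved too. They ran from 41 (without Tg2) to 468 (without CR4), against 291 as reported.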
